A study of Mus musculus with 43 samples.

Results

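High-fat libraries of mouse epididymal fat that held the most RNA of Adgre1 were set against those that held the least. Adgre1 is the gene of F4/80, a surface protein that marks mouse macrophages. The series has 43 RNA-seq libraries, all of epididymal white adipose tissue, a visceral fat depot, from male mice. By their labels, 7 belong to a standard diet with 10% fat (SD) and 10 to a diet with 60% fat (HFD). Another 9, 8 and 9 belong to the 60% fat diet together with SZ-A (alkaloids from Ramulus Mori, or Sangzhi, which is mulberry twig) in daily doses of 200, 400 and 600 mg/kg. The sources used here do not state strain or age, and the labels number the libraries of a group without naming animals, so p-values measure the spread between libraries only. All libraries compared below shared the 60% fat diet. Of the 36 high-fat libraries, 33 were ranked by CPM of Adgre1, that is counts per 1e6 counts of the library total. The 11 highest are called the rich side, the 11 lowest the poor side, and the remaining 11 the middle libraries. The rule left out SZ-A 400 libraries 3 and 6 and SZ-A 600 library 6, in which 12 listed genes of the epididymal duct and vas deferens summed to between 176 and 23811 CPM, against at most 3.86 on the rich side and 20.9 on the poor side.

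Macrophages take up dying cells, lipid and debris, present antigen and release cytokines. In fat they sit between adipocytes at low density on a lean diet, gather in crown-like rings around dying adipocytes in obesity, and there take on a lipid-handling form marked by Trem2, Cd9 and Itgax. Adipocytes store triglyceride, release it by lipolysis and secrete hormones such as leptin and adiponectin. In bulk tissue RNA, fewer cells of a type and less RNA per cell cannot be told apart, and a larger share of one cell type lowers the share left for the others.

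The sides were chosen by the measured level of Adgre1, so its own values are a description with no test. On the rich side its level ran from 368 through a median of 541 to 794 CPM, and on the poor side from 7.32 through 60.6 to 84.6 CPM. The middle libraries lay between 96.1 and 366 CPM. The boundary on the rich side was narrow: SZ-A 200 library 4, the last one inside, had 368 CPM, and SZ-A 200 library 3, the first outside, had 366 CPM. At the other end SZ-A 400 library 7 was inside at 84.6 CPM and SZ-A 600 library 9 outside at 96.1 CPM. The 7 SD libraries had 14.8, 20.7 and 51.9 CPM (lowest, median and highest), and 6 of the 11 poor libraries lay above every one of them. HFD library 8, the lowest of all, lay at 7.32 CPM, under every SD library. SD library 4, the highest SD library, also held 272 CPM of the epididymal duct genes, and without it the SD libraries reached 34.8 CPM.

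From the highest down, the rich side held HFD libraries 3 and 2, SZ-A 200 library 2, HFD libraries 5, 4, 6, 1 and 7, SZ-A 400 library 5, and SZ-A 200 libraries 7 and 4. The middle held SZ-A 200 library 3, SZ-A 400 libraries 2 and 4, SZ-A 200 library 8, SZ-A 600 libraries 8, 4 and 1, HFD library 9, SZ-A 600 library 2, SZ-A 200 library 6 and SZ-A 600 library 9. The poor side held, in falling order, SZ-A 400 library 7, SZ-A 600 libraries 3 and 5, SZ-A 200 library 9, SZ-A 400 library 8, SZ-A 200 library 5, HFD library 10, SZ-A 400 library 1, SZ-A 600 library 7, SZ-A 200 library 1 and HFD library 8. By group, 7 HFD libraries were rich, 1 middle and 2 poor. SZ-A 200 had 3 in each place. SZ-A 400 had 1 rich, 2 middle and 3 poor, and SZ-A 600 had 0 rich, 5 middle and 3 poor. Group medians of Adgre1 were 518 CPM in HFD, 295 in SZ-A 200, 208 in SZ-A 400 and 98.1 in SZ-A 600. Every group but SZ-A 600 reached the rich side, and every group reached the poor side. Because the sides are the Adgre1 ranking itself, these counts are a description. The sides are not dose groups, and each contrast below says only which genes went with Adgre1 over these libraries.

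**Figure D1:**
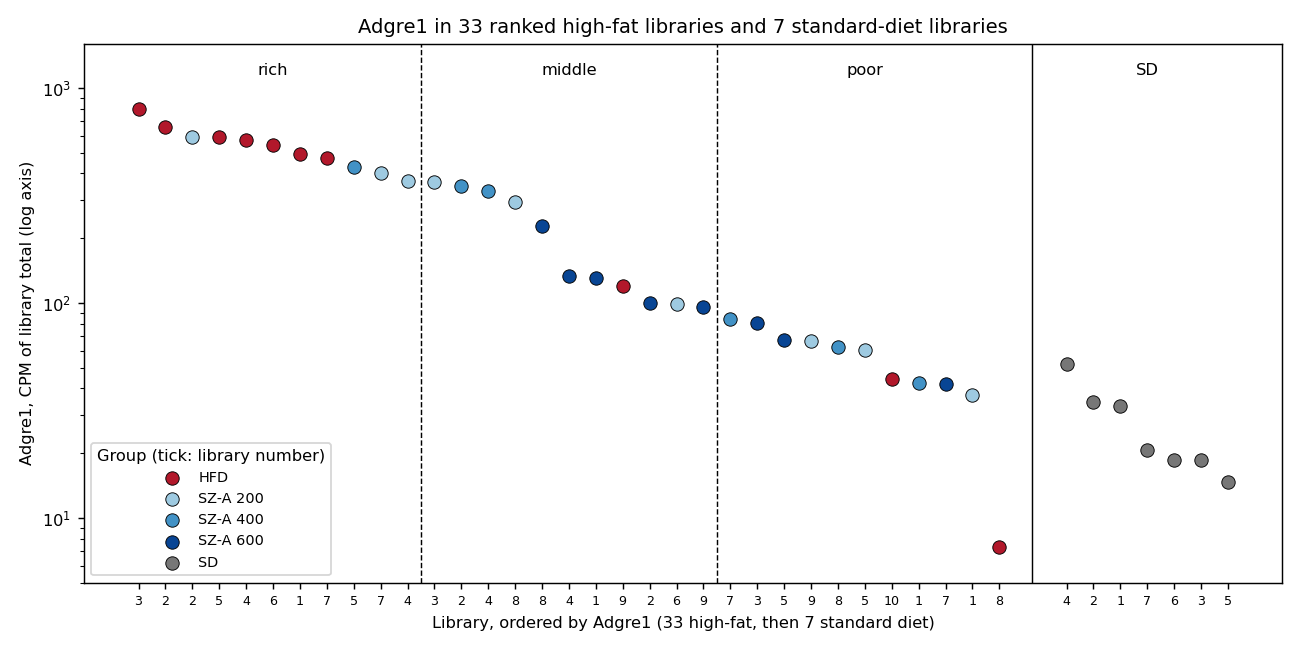
Adgre1 level (CPM of library total, log axis) in each of the 33 ranked high-fat libraries and, to the right, the 7 standard-diet libraries. Points are single libraries coloured by group, ticks give the library number, and dashed lines divide rich, middle and poor. HFD libraries fill 7 of the 11 rich places, SZ-A 600 libraries none, and HFD library 8 lies lowest at 7.32 CPM.

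Library totals, in units of 1e6 counts, were 33.4 to 44.3 over the 33 libraries, with means of 39.5 ± 2.79 on the rich and 37.6 ± 2.75 on the poor side (SD, n = 11 each, two-sided permutation test over 100000 resamples, adjusted p = 0.242). The share of counts on genes of the mitochondrial genome differed: 2.56 ± 0.54% on the rich side, range 1.92% to 3.68%, and 5.90 ± 2.40% on the poor side, range 3.05% to 11.4% (adjusted p = 3e-05, from the smallest p that the resamples allow). HFD library 8 had the highest share. The 100 most abundant genes took 24.7 ± 1.62% of counts on the rich and 32.0 ± 3.27% on the poor side (adjusted p = 3e-05). The part of these shares in the results below was not tested. Library numbers up to 5 and from 6 on form 2 sets that differ in small noncoding RNA, at 0.261% to 1.15% against 0.0598% to 0.219% of counts in the 33 libraries. The first set had 8 rich and 5 poor libraries and the second 3 rich and 6 poor.

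Of 17239 genes other than Adgre1 with enough counts to test, 4620 were higher on the rich side (26.8% of those tested) and 4875 were lower (28.3%), at an adjusted p under 0.05 by edgeR's quasi-likelihood test. The median log2 fold change of all tested genes was -0.03. Changes of at least 2-fold made up 2003 of the higher and 1793 of the lower calls. In 1546 of the higher genes (8.97% of those tested) the lowest rich library lay above the highest poor one, and in 670 of the lower genes (3.89%) the order was the opposite. With over 1 gene in 4 called each way, counts within a list are read against those shares. Within the first library set alone 4721 genes were higher and 4683 lower, and within the second 2848 and 2764. A test of whether the difference itself depended on the set called 0 genes (edgeR, lowest adjusted p = 0.217). In that test 1413 genes had an unadjusted p under 0.05, more than the 862 that are 5% of those tested, so the count of 0 does not show that the sets were alike. With dose group and set as terms, 4274 genes were higher and 4412 lower.

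The 11 middle libraries took no part in either side and were fitted on their own. There each gene was fitted against log2 CPM of Adgre1, which gives a slope in log2 units per log2 unit of Adgre1. Of all 17239 genes, 652 had a slope called above 0 (3.78%) and 313 below 0 (1.82%). Of the 4620 genes higher on the rich side, 4495 had a positive slope (97.3%), where 50.4% of all tested genes did. Of the 4875 lower genes, 4632 had a negative slope (95%). Of the genes called in the middle libraries, 650 and 310 were called in the same direction between the sides, and 0 in the opposite one. Most genes thus kept their direction in libraries that were on neither side. The middle was not free of other differences, since its highest places were SZ-A 200 and SZ-A 400 libraries and most SZ-A 600 libraries lay lower. The share of mitochondrial counts also varied there, from 2.20% in SZ-A 200 library 8 to 7.61% in SZ-A 600 library 4. The part of dose and of that share in the slopes was not tested.

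**Figure D2:**
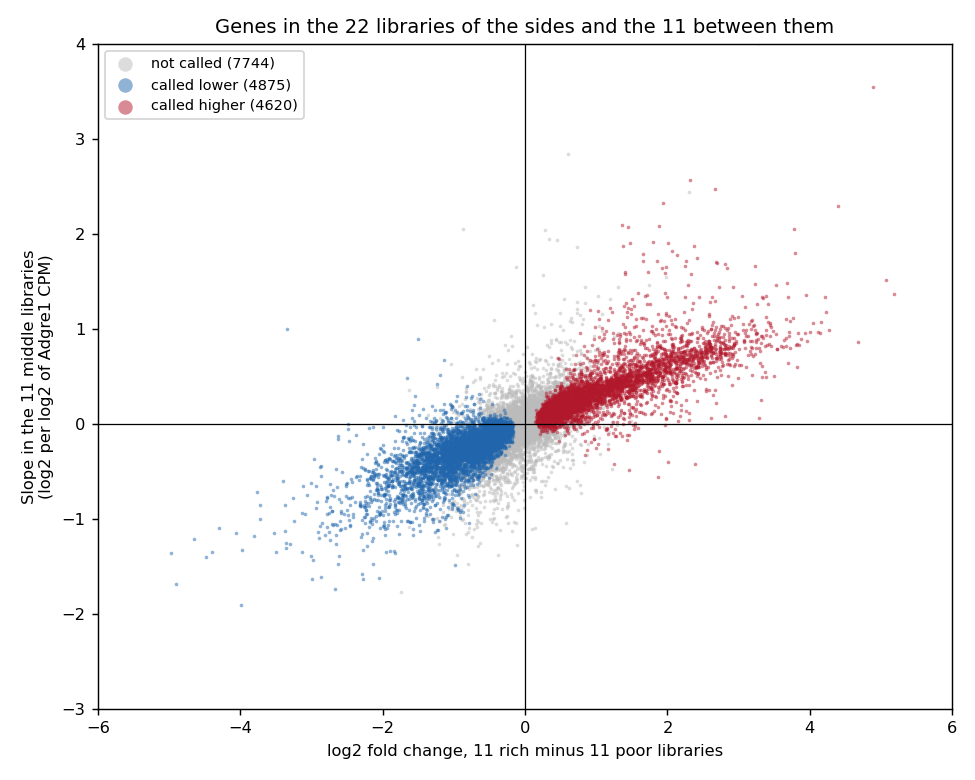
Log2 fold change between the 11 rich and 11 poor libraries (horizontal axis) against the slope on log2 Adgre1 in the 11 middle libraries (vertical axis), 1 point per tested gene, with 3 genes outside the axes. Genes called higher lie mostly above the horizontal line (4495 of 4620) and genes called lower mostly under it (4632 of 4875).

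The sides carry the name macrophage because of 1 gene, so the label was checked on 24 other macrophage markers. All 24 were tested and all 24 were higher on the rich side, where 26.8% of all tested genes were, with a median log2 fold change of 2.56. The sides did not overlap for 21 of them, against 8.97% of all genes. Their summed level was 8165 to 15915 CPM on the rich side, 1354 to 3322 on the poor side and 748 to 2000 in the SD libraries. In the middle libraries 24 of 24 slopes were positive and 17 were called, against 3.78% of all genes. Cd68, a lysosomal membrane protein of macrophages (ENSMUSG00000018774, chromosome 11), had 599.8, 797 and 1014 normalised CPM on the rich side (lowest, median and highest library; CPM after TMM scaling, as for every gene level from here on). On the poor side Cd68 had 63.5, 113 and 191, and the 11 rich libraries lay wholly above the 11 poor ones. The log2 fold change of Cd68 was 2.74 ± 0.18 (standard error, n = 11 and 11, adjusted p = 7.91e-12, edgeR). In what follows the rich side is given first, and parentheses hold the log2 fold change, rich minus poor, with its standard error. Higher, lower and called refer to that edgeR test. Csf1r, the receptor for the growth factor that macrophages depend on, had 518, 699.9 and 941 on the rich and 95.4, 136 and 197 on the poor side (2.24 ± 0.13, adjusted p = 1.21e-12). Ms4a7, a membrane protein of mature macrophages, and Itgam, the CD11b integrin chain, differed by 3.21 ± 0.20 and 2.36 ± 0.15, again without overlap.

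Which genes followed Adgre1 most closely was read from Spearman's rho over the 33 libraries, as a description over libraries that share tissue and diet. The 10 genes with the highest rho were Lcp1 (0.989), Pik3ap1, Tnfrsf11a, Slc37a2, Man1c1, Galc, Ptpro, Slc25a13, Daglb and Pak1 (0.978). Lcp1 is L-plastin, the actin bundler of leukocytes, and had 712, 947 and 1212 normalised CPM on the rich and 49.4, 119 and 190.3 on the poor side. Tnfrsf11a is RANK, a receptor for the cytokine RANKL on the macrophage and osteoclast lineage, at 46, 62.7 and 82.3 against 6.08, 9.54 and 12.9. Galc is a lysosomal galactosidase, Slc37a2 a sugar-phosphate transporter of the endoplasmic reticulum and Pak1 a kinase of the actin cytoskeleton. Since all 33 libraries chose these genes, their levels on the sides and in the middle add no separate reading.

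PU.1, the transcription factor that sets macrophage identity, binds purine-rich DNA with a GAGGAA core, so promoters of genes that moved with Adgre1 were searched for those letters on either strand (TTCCTC on the other). The promoters, from RefSeq on GRCm38.p6, span 300 bases, of which 250 lie before the transcription start. Of the 17232 distinct symbols tested, 11947 had a promoter in the table, and 30.9% of those held the letters in at least 1 promoter. The share was 33.7% of 3432 genes higher on the rich side and 29.7% of 3409 lower ones. It was 39.3% of the 1197 higher genes whose sides did not overlap, and 33.9% of 499 such lower genes. Among the macrophage markers with a promoter in the table it was 12 of 17, and among those of the mature adipocyte list 5 of 15. Of the 10 genes most like Adgre1, 4 held the letters. The letters were in 28.3% of all 32851 promoters given. A match is a run of letters and no measured binding, and the genes printed below are only examples. Shown here are the 250 bases before the start for 3 genes of the rich side that hold the letters and for Cfd, an adipocyte gene of the poor side that does not, 5′ to 3′ on the gene's strand with each match in capitals. Cd68 lies at chr11:69666171-69666420 (minus strand), Trem2 at chr17:48346151-48346400 (plus), Pik3ap1 at chr19:41385103-41385352 (minus) and Cfd at chr10:79890603-79890852 (plus).
Cd68: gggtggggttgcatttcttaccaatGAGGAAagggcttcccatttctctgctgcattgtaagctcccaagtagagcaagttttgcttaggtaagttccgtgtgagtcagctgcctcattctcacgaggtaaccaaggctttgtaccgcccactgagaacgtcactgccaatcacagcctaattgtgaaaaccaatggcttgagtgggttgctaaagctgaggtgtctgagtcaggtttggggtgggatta
Trem2: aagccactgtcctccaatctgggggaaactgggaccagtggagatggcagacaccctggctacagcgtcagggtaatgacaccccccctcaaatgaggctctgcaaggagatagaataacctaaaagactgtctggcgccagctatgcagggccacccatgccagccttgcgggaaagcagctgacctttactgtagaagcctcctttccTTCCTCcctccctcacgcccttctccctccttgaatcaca
Pik3ap1: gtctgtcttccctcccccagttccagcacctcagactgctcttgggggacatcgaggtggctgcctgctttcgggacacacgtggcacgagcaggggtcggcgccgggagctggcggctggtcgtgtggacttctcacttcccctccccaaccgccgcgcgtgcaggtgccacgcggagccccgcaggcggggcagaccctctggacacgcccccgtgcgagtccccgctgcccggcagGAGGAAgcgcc
Cfd: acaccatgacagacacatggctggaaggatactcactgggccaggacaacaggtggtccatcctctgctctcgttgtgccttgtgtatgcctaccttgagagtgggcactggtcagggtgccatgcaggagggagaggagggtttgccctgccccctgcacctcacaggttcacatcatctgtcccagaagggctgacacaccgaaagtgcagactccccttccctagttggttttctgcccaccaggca
Cd68 held a further match in the 50 bases after the start.

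Markers of the lipid-associated macrophage, the form found in crown-like structures, were higher on the rich side in 20 of 22 cases, with a median log2 fold change of 2.56. Trem2, a lipid-sensing receptor, had 310.3, 499.8 and 662 normalised CPM on the rich and 8.18, 61.5 and 107 on the poor side, with 7.58 as the SD median. The lowest rich library lay well above the highest poor one (3.19 ± 0.35, adjusted p = 5.02e-08). Itgax, the CD11c integrin chain, had 259.6, 474 and 637 against 9.25, 78.9 and 115 (2.76 ± 0.30). Lipa, the acid lipase that splits lipid in lysosomes, had 825, 1049.9 and 1405 against 56.7, 196 and 308 (2.47 ± 0.20). Pld3, Cd9 and Capg, a lysosomal nuclease, a tetraspanin and an actin-capping protein, differed by 2.36, 2.04 and 2.73 without overlap. Spp1, the secreted matrix protein osteopontin, ranged widely and overlapped, at 41.7, 99.1 and 515 against 1.55, 4.17 and 73.2 (3.69 ± 0.69, and 4.63 without HFD library 10). In the second library set alone Spp1 was not called (2.53, adjusted p = 0.051). Apoe and Acp5 went the other way. Apoe, a lipid carrier that adipocytes also make, was at 2207, 3716 and 5634 against 3188, 4771 and 6414 (-0.38 ± 0.16, adjusted p = 0.047), and this call was lost in 14 of 22 fits that left out 1 library (adjusted p up to 0.0872), HFD library 8 among them. Acp5, a phosphatase, was at 107, 225 and 281 against 171, 334 and 437 (-0.58 ± 0.17). Of the 22 markers 3 had a called slope in the middle libraries, and all 22 slopes had the sign seen between the sides.

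Markers of resident macrophages did not move as a group: 8 of 18 were higher, 3 lower and 7 not called, with a median of -0.05. Mrc1, the mannose receptor CD206, was among the higher ones, at 233, 324 and 473 against 52.3, 74 and 127 (2.11 ± 0.16), as were Folr2, a folate receptor (2.61 ± 0.23), and Vsig4, a complement receptor (2.58 ± 0.34). None of the sides of these 3 overlapped. The lower ones were Cd209g, Cd209d and Retnla. Cd209d, a C-type lectin, had 2.38, 4.2 and 6.85 against 2.12, 9.27 and 20.3 (-1.16 ± 0.34), and Retnla, the secreted protein of alternatively activated macrophages, 5.52, 80.3 and 264 against 54.3, 213 and 401 (-1.15 ± 0.42, adjusted p = 0.0232). Ranges overlapped for all 3, and none of the 3 was called in the second library set alone (adjusted p = 0.106 for Retnla, 0.575 for Cd209d and 0.392 for Cd209g) or in the SZ-A libraries alone (0.541, 0.19 and 0.118). The Retnla call was lost in 6 of 23 alternatives other than leaving out 1 library. Lyve1, a hyaluronan receptor of perivascular macrophages and lymphatic vessels, had medians of 13.2 and 13 and was not called (-0.56 ± 0.43, adjusted p = 0.282). With dose group and library set as terms Lyve1 was called lower (-1.38, adjusted p = 0.0139), and the list held 6 higher and 8 lower members. In the first library set alone 7 resident macrophage genes were higher and 5 lower, and in the second 6 and 0. With library totals as the only scaling the median of the resident macrophage list was 0.06.

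The largest rises included macrophage genes and several genes best known from neurons. Apart from antibody segments, which are described with the B cell genes, the largest was that of Itgad, the CD11d integrin chain of tissue macrophages, with 13, 25.9 and 42.3 normalised CPM on the rich side and 0.184, 1.04 and 2.06 on the poor side (4.68 ± 0.31, adjusted p = 9.8e-12). Il1rn, the secreted antagonist of the interleukin-1 receptor, had 61.1, 72.9 and 226 against 0.735, 5.99 and 10.2 (4.22 ± 0.34, adjusted p = 2.53e-10). Cd5l, a scavenger protein secreted by macrophages, had 1.55, 6.82 and 41.3 against 0.184, 0.476 and 1.1 (4.40 ± 0.53). Fat3, a giant cadherin, had 8.87, 22.7 and 36.5 against 0.186, 1.06 and 2.65 (4.14 ± 0.36). Tph2, the serotonin-synthesis enzyme of neurons, had 20.2, 80.5 and 121 against 0.4, 2.2 and 18.5 (3.94 ± 0.51). In the SD libraries Tph2 had 0, 0.354 and 0.7, and the lowest rich library lay only a little above the highest poor one. Gpr50, an orphan receptor related to melatonin receptors, is named from a fixed set of genes and not for the size of its rise. Its levels were 17.7, 50.3 and 76.5 against 1.23, 6.96 and 17.5 (2.74 ± 0.38). Nptx1 (a neuronal pentraxin), Npy (neuropeptide Y), Siglec15 (a sialic acid receptor of osteoclasts) and Serpinb9b (a protease inhibitor) differed by 4.22, 4.11, 4.05 and 3.81. Their sides did not overlap, and without HFD library 10 the value for Nptx1 was 4.98. When all 36 high-fat libraries were ranked, Nptx1 was not called (0.61, adjusted p = 0.608). Arg1, the arginase of alternatively activated macrophages, had 0.816, 4.95 and 38.6 against 0.173, 0.687 and 1.75 and did overlap (3.88 ± 0.56). In the second library set alone Arg1 was not called (1.64, adjusted p = 0.055).

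**Figure D3:**
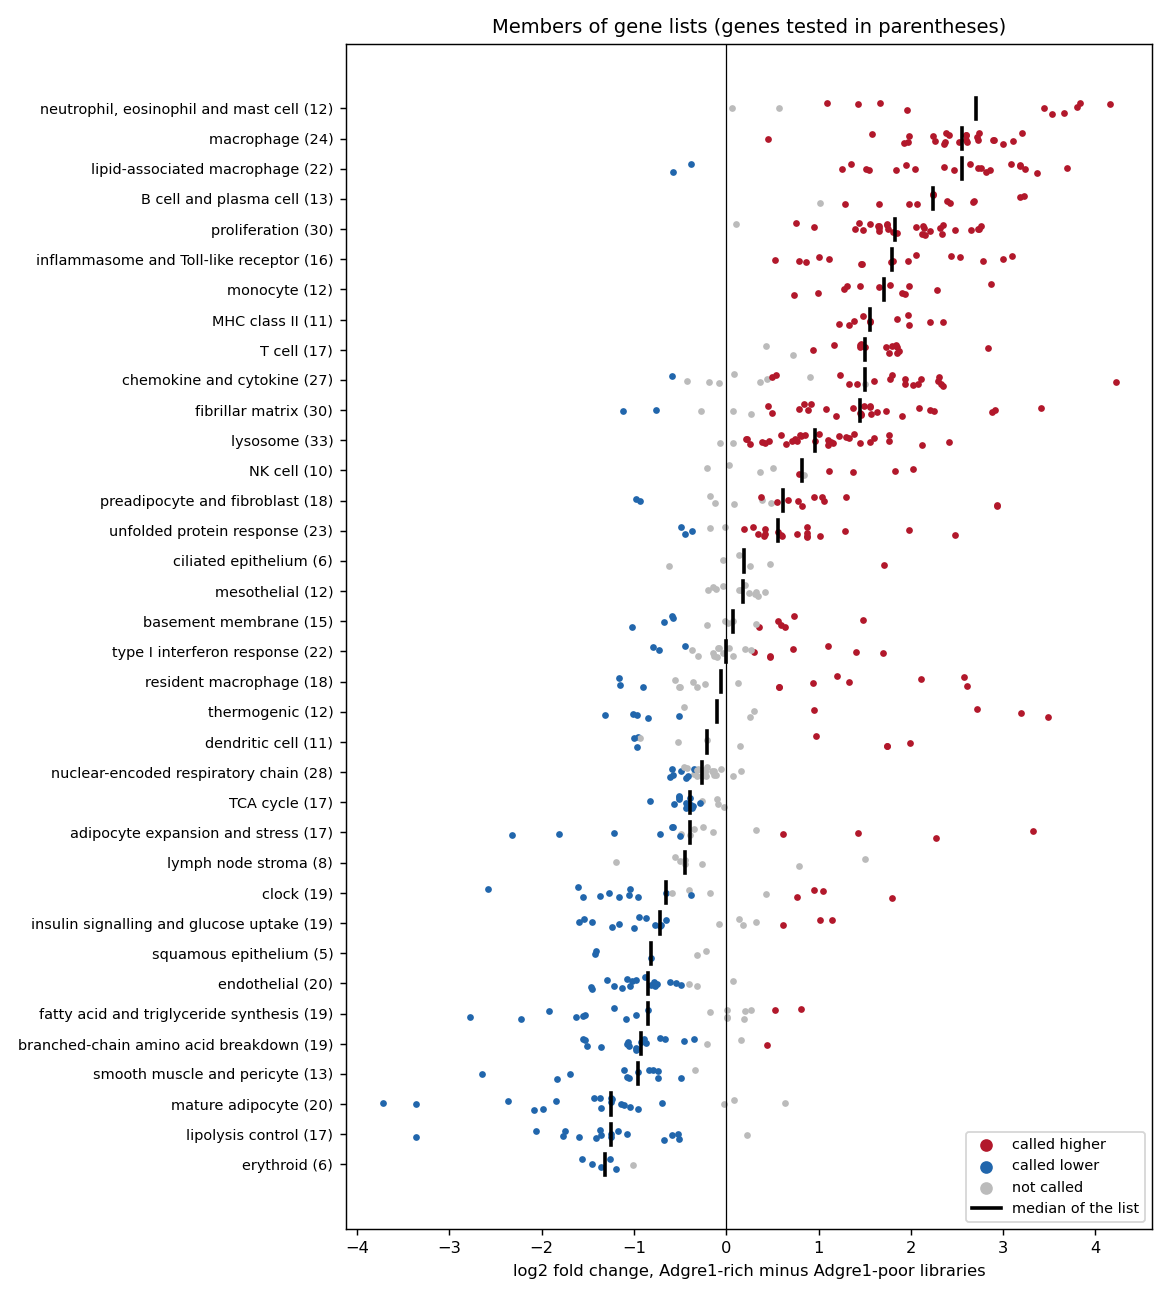
Log2 fold change between rich and poor libraries for every tested member of the gene lists with at least 5 tested genes, 1 point per gene, coloured by its call, with the median of each list as a bar. Macrophage and related lists lie to the right of 0, adipocyte, lipolysis, endothelial and erythroid lists to the left, and the resident macrophage, thermogenic, dendritic and interferon lists spread to both sides.

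Monocyte genes were higher in 12 of 12 cases, with a median of 1.71. Fn1, fibronectin, which monocytes and fibroblasts both make, had 689.9, 1105 and 2107 against 140.1, 299.7 and 444 (1.91 ± 0.20). Ccr2, the receptor by which monocytes follow the chemokine Ccl2, had 44.4, 60.4 and 85.6 against 12.6, 23.8 and 46.8, with SZ-A 600 library 3 of the poor side inside the rich range (1.28 ± 0.18). Spn, the sialoprotein CD43, and F10, coagulation factor X, differed by 1.93 and 2.29 without overlap. Of 11 dendritic cell genes 4 were higher and 3 lower, near the shares of all tested genes (26.8% and 28.3%), with a median of -0.20. Zbtb46, the transcription factor of conventional dendritic cells and of endothelium, was lower, at 15.6, 21.5 and 26.9 against 25.4, 41.4 and 58.7 (-0.96 ± 0.13). Flt3, the growth factor receptor of that lineage, was higher, at 2.03, 3.76 and 5.52 against 0.493, 1.04 and 2.47 (1.74 ± 0.23). Xcr1, a chemokine receptor of the cross-presenting dendritic cell, differed by 1.74 ± 0.44.

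Lymphocyte lists were higher as well, but mostly with overlapping sides. Of 17 tested T cell genes 15 were higher and none lower, and the median was 1.51. Il7r, the interleukin-7 receptor, alone had sides that did not overlap, at 117, 167 and 199 against 5.98, 22.3 and 47 (2.84 ± 0.27). The summed level of the list was 144 to 281 CPM on the rich and 19.7 to 55.7 CPM on the poor side. Most of it was Il7r, and which cells made Il7r was not tested. Trac, the constant region of the T cell receptor alpha chain, had 1.88, 4.79 and 9.75 against 0.589, 1.5 and 2.59 (1.79 ± 0.28), and Lck, a T cell kinase, 1.16, 4.24 and 18.1 against 0.577, 1.58 and 2.75. NK cell genes were higher in 5 of 10 cases, among them Nkg7 (1.37 ± 0.29) and Eomes (2.02 ± 0.42), at levels of a few CPM. Of 13 B cell and plasma cell genes 12 were higher, with a median of 2.24, and here single libraries weighed most. Ms4a1, CD20, had 0.158, 0.847 and 41.9 on the rich and 0.0986, 0.55 and 1.32 on the poor side (3.22 ± 0.81, adjusted p = 0.0017). The highest value came from HFD library 7, and without that library the log2 fold change was 1.51 (adjusted p = 0.021). Ms4a1 was not called by limma on log2 FPKM (0.42, adjusted p = 0.144) or in the first library set alone (1.71, adjusted p = 0.0648). Cd79b, part of the B cell receptor, was likewise 2.24 with and 1.64 without HFD library 7. Cd22, a sialic acid receptor of B cells, did separate the sides, at 15.7, 18.5 and 60.9 against 0.398, 3.23 and 5.08 (3.18 ± 0.35). Every rich library thus held far more Cd22 than the rich median of Ms4a1, 0.847, and which cells made Cd22 was not tested. The antibody gene segments Ighv1-53 and Ighv1-26 and the constant region Ighg2c had log2 fold changes of 4.98 ± 1.17, 4.88 ± 1.12 and 3.79 ± 0.89. Their values were uneven within the rich side, at 0, 2.06 and 38.5 for Ighv1-53, 0, 0.547 and 38.9 for Ighv1-26 and 0.43, 5.23 and 54.4 for Ighg2c. Near-identical copies of these genes can share reads, so the single values are uncertain. Ighv1-26 ranged from 4.19 without HFD library 7 to 5.60 without SZ-A 200 library 1. Ighv1-53 was 6.50 without HFD library 10, and Ighg2c 4.70 without SZ-A 400 library 8. With all 36 high-fat libraries ranked, Ighv1-53 and Ighg2c were not called (1.21 and 1.94, adjusted p = 0.481 and 0.142). Ighv1-53 was not called with dose group and set as terms (2.93, adjusted p = 0.106) or in the second set (2.59, 0.217), nor Ighv1-26 in the first (3.79, 0.0804). The summed level of the B cell list was highest in SZ-A 200 library 8 of the middle, at 7751 CPM, then in HFD libraries 4 and 7, at 2869 and 2320 CPM. None of the 8 tested lymph node stroma genes was called (edgeR), and their summed level was 43.2 to 193 CPM on the rich and 74.8 to 257 CPM on the poor side.

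Of the neutrophil, eosinophil and mast cell genes 10 of 12 tested were higher, with a median of 2.70, and 6 more were too low to test. The neutrophil genes Ly6g, Retnlg, Mmp8 and Cxcr2 were among those too low. S100a8 was higher (1.96 ± 0.49), whereas S100a9 and Kit were not called (0.07 and 0.57, edgeR adjusted p = 0.916 and 0.056). Csf3r, the receptor for granulocyte colony-stimulating factor, had 10.5, 16.5 and 21.7 against 1.9, 4.94 and 6.95 (1.66 ± 0.17), and Ccr3, the eotaxin receptor, 1.87, 3.33 and 6.04 against 0, 0.159 and 0.744 (3.84 ± 0.50). Neither overlapped. The mast cell proteases Cpa3 and Mcpt4 differed by 3.80 ± 0.53 and 3.53 ± 0.52 with overlap, and Cpa3 was spread over 1.35, 9.93 and 78.6 on the rich side against 0.69, 1.37 and 2.17 on the poor side. Mrgprb1, a mast cell receptor, differed by 3.81 ± 0.69, and by 2.77 without SZ-A 200 library 7.

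Chemokine and cytokine genes were higher in 18 of 27 cases and lower in 1, with a median of 1.50. Tgfb1, transforming growth factor beta, had 162, 214 and 247 against 54.3, 70.8 and 90.7 (1.60 ± 0.10, adjusted p = 4.7e-12). Cxcl16 and Ccl9, chemokines that macrophages release, differed by 1.80 and 2.31, all without overlap. Ccl2, the monocyte attractant, had 16, 24.4 and 43.1 against 2.7, 4.57 and 18.8 with some overlap (2.08 ± 0.29), and Tnf, the inflammatory cytokine, 1.23, 2.46 and 3.67 against 0.059, 0.592 and 1.66 (1.93 ± 0.34). In the second library set alone Ccl2 was not called (1.21, adjusted p = 0.0729). The 1 lower gene was Cxcl9, an interferon-gamma target, at 20.1, 38.3 and 73.4 against 37.7, 64 and 78.5 (-0.59 ± 0.20, adjusted p = 0.0141). The Cxcl9 call was lost in 5 of 23 alternatives other than leaving out 1 library. Among them were the first library set alone (-0.49, edgeR adjusted p = 0.101), 16 against 16 libraries (-0.23, 0.382) and a slope over all 33 libraries (0.112). Its slope in the middle libraries was positive (0.24).

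Inflammasome and Toll-like receptor genes, which hold sensors of microbial products and their partners, were higher in 16 of 16 cases, with a median of 1.80 and 12 without overlap. Tlr7 and Tlr8, endosomal receptors for RNA, had rich medians of 47 and 84.2 and poor medians of 8.4 and 10.5 (2.54 ± 0.15 and 2.99 ± 0.22). Tlr1 and Tlr6, the partners of Tlr2 on the cell surface, differed by 2.78 and 1.97. MHC class II genes, which present antigen, were higher in 11 of 11 cases (median 1.56). Ciita, the factor that switches them on, had 22.2, 44.5 and 66.2 against 6.65, 11.9 and 18.1 without overlap (1.97 ± 0.17), and Cd74, the chain that guards the class II groove, 574, 1896 and 2706 against 351, 656 and 832 with overlap (1.56 ± 0.20). SZ-A 200 library 7, which is on the rich side, held the lowest rich-side values of both H2-DMa and H2-DMb1, at 24.2 and 53.5. The type I interferon response did not move as a group, with 7 of 22 higher, 3 lower and a median of -0.00. Oas1a, an RNA sensor enzyme, was higher (1.70 ± 0.17) and Xaf1 lower (-0.45 ± 0.14). The Xaf1 call was lost in 6 of 23 alternatives, among them the first library set alone (-0.07, adjusted p = 0.587) and library totals as the only scaling (-0.39, 0.0587). With dose group and library set as terms 4 genes of the type I interferon response were higher and 8 lower, whereas the first library set alone gave 11 higher and 0 lower and the second 2 and 1.

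Lysosomal genes were higher in 31 of 33 cases, with a median of 0.96, and 21 had sides that did not overlap. Gusb, beta-glucuronidase, had 359, 478 and 659 against 55.6, 109 and 159.7 (2.12 ± 0.14), and Ctsa, a protective carboxypeptidase, 550.4, 632 and 908 against 199, 228 and 289.8 (1.56 ± 0.10). Tfeb, the transcription factor of lysosome genes, had 41.1, 48.5 and 67.2 against 14.2, 21.3 and 24.9 (1.33 ± 0.10), and the mannosidase Man2b1 differed by 1.45. Proliferation genes were higher in 29 of 30 cases, with a median of 1.83, 16 without overlap and 13 called in the middle libraries. Mki67, the protein of dividing nuclei, had 47.4, 75.1 and 107 against 5.51, 8.24 and 32.6 (2.73 ± 0.27). Its highest poor library was HFD library 10, and the replication genes Mcm6, Mcm3 and Pcna differed by 1.74, 1.44 and 1.56 without overlap. Genes of the unfolded protein response were higher in 18 of 23 cases and lower in 3 (median 0.56). Atf3, a stress-induced transcription factor, had 205, 259 and 361 against 10.3, 47.6 and 84 (2.47 ± 0.25). Sdf2l1, Ero1b and Dnajb11, which help proteins fold in the endoplasmic reticulum, differed by 1.98, 1.29 and 0.87. Hspa5, the chaperone BiP, had 469, 617 and 911 against 236, 320.4 and 478, with overlap (0.88 ± 0.12). Xbp1, the factor that drives many of these genes, was lower, at 147, 178 and 202 against 195, 248 and 303 (-0.49 ± 0.09, adjusted p = 4.09e-05).

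**Figure D4:**
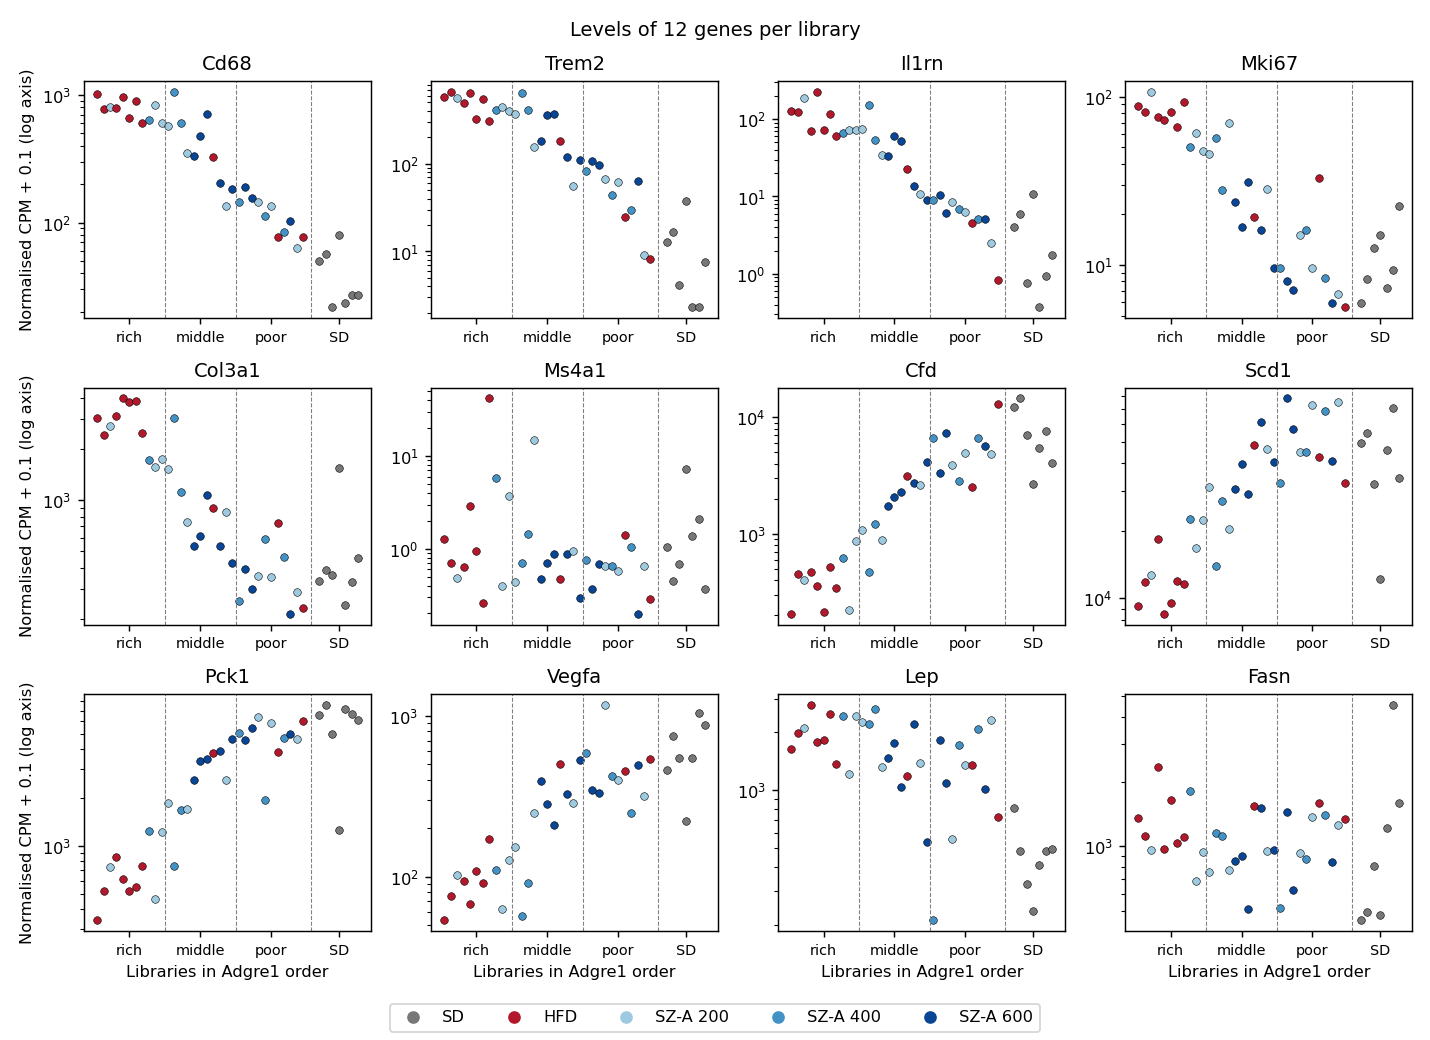
Normalised CPM plus 0.1 (log axis) of 12 genes in each library, high-fat libraries in order of Adgre1 and then the 7 standard-diet libraries, points coloured by group. Cd68, Trem2, Il1rn, Mki67 and Col3a1 fall from left to right over the high-fat libraries, Cfd, Scd1, Pck1 and Vegfa climb, Lep and Fasn overlap throughout, and Ms4a1 is high in single libraries such as HFD library 7.

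On the other side of the contrast stood the adipocyte. Of 20 mature adipocyte genes 17 were lower on the rich side and none higher, with a median of -1.25 and 10 without overlap. Cfd, adipsin, the complement factor D that adipocytes secrete, had 206, 402 and 871 on the rich and 2522, 4896 and 13114 on the poor side (-3.72 ± 0.30, adjusted p = 3.06e-10). In the SD libraries Cfd had 2682, 7067 and 14552, which overlapped the poor side and not the rich one. Plin4 and Plin1, coat proteins of the lipid droplet, had 1126, 1775 and 2246 against 5365, 5986 and 7328 (-1.85 ± 0.13) and 684, 868 and 1273 against 1844, 2152 and 2588 (-1.25 ± 0.12). Acvr1c, the receptor ALK7, differed by -2.08 ± 0.18. Adipoq, adiponectin, had 742, 1488 and 2309.6 against 1511, 4662 and 5519 with overlap (-1.44 ± 0.23), and Pparg, the factor that makes adipocytes, 79.6, 127 and 139 against 160.2, 218 and 364 without (-0.95 ± 0.13). The 3 genes not called were Lpl, Cd36 and Lep. Lpl, the lipase that feeds adipocytes, and Cd36, a fatty acid and scavenger receptor, are also made by macrophages. Lpl had 7038, 10076 and 12317 against 6435, 9754 and 13123 (-0.02 ± 0.14, adjusted p = 0.916), and Cd36 differed by 0.08 ± 0.14 (adjusted p = 0.637). Lep, leptin, had 1209.7, 1988 and 2779 against 210.3, 1354 and 2312 (0.63 ± 0.27, adjusted p = 0.0506). The lowest Lep value on the poor side, SZ-A 400 library 7, was under every SD library, and without that library the log2 fold change was 0.52 (adjusted p = 0.0448). DESeq2's Wald test called Lep higher (0.62, adjusted p = 0.0294), as did edgeR with library totals as the only scaling (0.72, adjusted p = 0.0187). So did DESeq2 size factors, limma, a stricter filter, the ranking by normalised CPM, 16 against 16 libraries and a slope over all 33 libraries. Several fits that left out another single library also called Lep, and the other alternatives did not.

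Ripk4, a kinase of epithelial differentiation, had the largest fall of the named genes, with 0.0803, 0.52 and 0.661 on the rich and 2.52, 8.32 and 25.4 on the poor side (-4.65 ± 0.38, adjusted p = 3.6e-10). Acsm3, a mitochondrial fatty acid ligase, had 0.301, 0.618 and 1.58 against 2.13, 16.5 and 37.7 (-4.40 ± 0.38), and Cyp2e1, a cytochrome P450, 38, 115 and 457 against 449, 2208 and 5409 (-3.80 ± 0.44). Ripk4 and Acsm3 did not overlap, whereas Cyp2e1 did by a narrow margin. Adrb3, the beta-3 adrenergic receptor by which noradrenaline starts lipolysis, had 29.6, 62.2 and 127 on the rich and 171, 483 and 2008 on the poor side (-3.36 ± 0.36). Fam13a, a gene tied to fat distribution, Mycl, a MYC relative, and Adgrg2, an adhesion receptor, differed by -3.53, -3.24 and -3.13 without overlap. Orm3, an acute-phase carrier protein, differed by -3.12 ± 0.35 with overlap, at 0.527, 1.58 and 4.41 against 3.83, 14.4 and 31.

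Lipolysis control went the same way as the adipocyte list: 16 of 17 genes were lower and none higher (median -1.25). The lists are not separate, since Pnpla2, Lipe, Plin1 and Adrb3 are in both. Lipe, hormone-sensitive lipase, had 519, 671 and 1067 against 1259, 1837 and 2486 (-1.36 ± 0.14), and Pde3b, the phosphodiesterase through which insulin curbs lipolysis, 118, 185 and 265 against 399, 587 and 688 (-1.59 ± 0.14). Ffar4, a fatty acid receptor, differed by -2.06 ± 0.18, and none of the 3 overlapped. Synthesis of fatty acid and triglyceride was mixed, with 10 of 19 genes lower, 2 higher and a median of -0.85. Pck1, which makes glycerol phosphate for triglyceride, had 340.2, 619 and 1229 against 1928, 4967 and 6344 (-2.78 ± 0.22), and Scd1, the desaturase, 8533, 11942 and 22662 against 32498, 45079 and 77860 (-1.92 ± 0.21). Lpin1 and Acaca, a phosphatidate phosphatase and acetyl-CoA carboxylase, differed by -1.55 and -1.22. Fasn, fatty acid synthase, was not called, at 689.8, 1104 and 2343 against 516, 1253 and 1594 (0.20 ± 0.21, adjusted p = 0.439). The 2 higher genes were Acly, ATP citrate lyase (0.53 ± 0.10), and Elovl6, an elongase (0.81 ± 0.17), and neither was called when all 36 high-fat libraries were ranked (0.22 and 0.23, adjusted p = 0.32 and 0.52).

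Breakdown of branched-chain amino acids, a pathway active in adipocytes, was lower in 16 of 19 genes (median -0.92). Ivd, isovaleryl-CoA dehydrogenase, had 82.1, 99.5 and 146 against 180.4, 309 and 452 (-1.51 ± 0.13), and Bckdhb, a subunit of the branched-chain ketoacid dehydrogenase, 28.9, 43.2 and 57.2 against 79.8, 101 and 227 (-1.56 ± 0.17). Neither overlapped, nor did Aldh6a1 (-1.54 ± 0.14). The 1 higher gene was Hadha, of mitochondrial fatty acid oxidation (0.45 ± 0.12). Citric acid cycle genes were lower in 13 of 17 cases by small amounts (median -0.39), such as Suclg2 (-0.82 ± 0.12) and Dlst (-0.39 ± 0.08), all with overlap. Nuclear-encoded respiratory chain genes were lower in 7 of 28 cases, or 25%, which is near the background of 28.3% (median -0.26). Sdha and Ndufv1, subunits of complexes II and I, differed by -0.61 ± 0.12 and -0.59 ± 0.14. With dose group and library set as terms 24 of the 28 were lower. Genes of the mitochondrial genome itself took a smaller share of counts on the rich side, 2.56% against 5.90%, and the part of that share in these lists was not tested. In the middle libraries 6 of the 28 slopes had the sign seen between the sides, and 8 of 17 for the citric acid cycle, so here the middle libraries did not repeat the pattern.

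Insulin signalling and glucose uptake genes were lower in 12 of 19 cases and higher in 3 (median -0.72). Among the lower ones, Pde3b is also in the lipolysis list and Slc2a4 in the mature adipocyte list. Insr, the insulin receptor, had 67.5, 90.9 and 132 against 170.3, 205 and 287 without overlap (-1.16 ± 0.12). Irs1 and Irs2, the adaptors under it, had 3.92, 7.64 and 15.9 against 8.94, 22.3 and 48.8 (-1.45 ± 0.25) and 47.8, 71.4 and 104 against 96.9, 209.7 and 319 (-1.54 ± 0.18). Akt2, the kinase isoform of insulin action, was lower, at 214, 279 and 357 against 322, 589 and 652, and Akt1 was higher (0.62 ± 0.09). Ptpn1, a phosphatase that damps the insulin receptor, was higher without overlap, at 103, 123 and 208 against 53.6, 59.9 and 83.8 (1.15 ± 0.12), and Cbl, an adaptor and ubiquitin ligase, was higher too (1.01 ± 0.16).

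The series title speaks of browning, so thermogenic genes were read separately. Of 18 listed genes 12 had enough counts to test, 5 were lower, 4 higher, and the median was -0.10. Ucp1, the uncoupling protein of brown fat, was too low to test. Ebf2, a factor of brown and beige precursors, had 10.7, 14.7 and 21.2 against 24.3, 29.6 and 49.5 without overlap (-1.01 ± 0.15). Ppargc1a, the coactivator of mitochondrial genes, had 0.738, 2.4 and 4.71 against 1.98, 4.56 and 6 (-0.84 ± 0.23), Ppara differed by -1.31 ± 0.23 and Prdm16 by -0.51 ± 0.17, all with overlap. With dose group and library set as terms Ppargc1a and Prdm16 were not called (-0.55 and -0.28, adjusted p = 0.0973 and 0.247). The higher genes were Dio2, Tmem26, Otop1 and Gk, and none of them overlapped. Dio2, the deiodinase that activates thyroid hormone, had 0.738, 1.88 and 7.35 against 0, 0.291 and 0.575 (3.20 ± 0.51), and Tmem26, a beige adipocyte surface marker, 0.653, 1.74 and 12 against 0.0528, 0.197 and 0.625 (3.48 ± 0.50). Otop1, a proton channel, had 7.19, 9.65 and 12.9 against 0.398, 1.35 and 3.24 (2.72 ± 0.25), and Gk, glycerol kinase, differed by 0.95 ± 0.13. Ranked in all 36 high-fat libraries, Gk had the opposite sign and was not called (-1.27, adjusted p = 0.0827). Without SZ-A 200 library 2 the value for Tmem26 was 2.88. Over all tested genes 26.8% were higher and 28.3% lower, so the counts of calls among 12 genes do not set this list apart.

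Genes of adipocyte expansion and stress were lower in 7 of 17 cases and higher in 4 (median -0.40), where 28.3% and 26.8% of all tested genes were. The lower gene Npr3 is also in the lipolysis list. Vegfa, the vessel growth factor, had 53.3, 93.1 and 171 against 247, 419.6 and 1165 (-2.32 ± 0.24), and Nnat, neuronatin, 220.1, 489 and 877 against 1016, 1992 and 2392 (-1.81 ± 0.22). Gdf3, a ligand of ALK7, was higher on the rich side while its receptor gene Acvr1c was lower, at 7.35, 19.7 and 27.4 against 0.0613, 1.98 and 4.39 (3.33 ± 0.39). Hmox1, haem oxygenase, had 134, 201 and 700.1 against 41.1, 55.3 and 68.5 (2.28 ± 0.25). Mest and Sfrp5, which track fat pad growth, were not called (-0.40 ± 0.25 and -0.49 ± 0.28, adjusted p = 0.181 and 0.14). With library set as a term both were called lower (-0.55 and -0.70, adjusted p = 0.021 and 0.012), and in the first set alone 12 of the 17 expansion and stress genes were lower and 5 higher. Clock genes were lower in 11 of 19 cases and higher in 4 (median -0.65). Cry2, Nr1d1 and Per2, repressors of the clock loop, differed by -1.05, -1.06 and -1.36, while the activators Arntl and Npas2 were higher (1.05 ± 0.22 and 1.79 ± 0.31). Dbp, an output gene with a strong daily rhythm, was not called (-0.58 ± 0.35, adjusted p = 0.158), and its call and sign depended on the model: with dose group as a term it was higher (0.58, adjusted p = 0.0461), and with a block on library number it was lower (-1.16, adjusted p = 0.0305). The labels used here give no time of tissue collection.

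Matrix genes were higher with Adgre1. Of 30 fibrillar matrix genes 25 were higher and 2 lower, with a median of 1.45 and 13 without overlap. Col3a1, type III collagen, had 1577, 2725 and 3988 against 213, 353 and 729 (2.88 ± 0.23, adjusted p = 1.84e-10), and Col1a1, type I collagen, 715, 1289 and 2199.5 against 132, 228 and 619.7 (2.20 ± 0.27). Timp1, the inhibitor of matrix proteases, had 13.1, 21.5 and 34.4 against 1.19, 1.55 and 6.16 (3.41 ± 0.27), and Bgn and Loxl2, biglycan and a cross-linking enzyme, differed by 1.45 and 1.64. The 2 lower genes were Thbs1 and Thbs2, the thrombospondins (-1.12 ± 0.24 and -0.76 ± 0.15). Genes of preadipocytes and fibroblasts were higher in 11 of 18 cases and lower in 2 (median 0.61). Lum, the collagen-binding lumican, had 169, 257 and 352 against 16.7, 28.5 and 63 without overlap (2.93 ± 0.21), whereas Pdgfra and Fap differed by 1.06 and 0.82 with overlap. The lower ones were Gsn, gelsolin (-0.94 ± 0.15), and Dlk1, a preadipocyte factor (-0.98 ± 0.37, adjusted p = 0.0262), whose call was lost without HFD library 10, SZ-A 200 library 9 or SZ-A 400 library 7 (adjusted p = 0.0566, 0.0506 and 0.0505). Of 15 basement membrane genes 6 were higher and 4 lower (median 0.07), where 26.8% and 28.3% of all tested genes were. Lama2, a laminin chain, was among the higher ones (1.48 ± 0.21).

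Most vessel genes were lower. Of 20 endothelial genes 17 were lower and none higher (median -0.85), and 1 of the list, Fabp4, is also in the mature adipocyte list. The general endothelial markers Pecam1, Cdh5 and Vwf were not called (-0.31, -0.41 and 0.08, edgeR adjusted p = 0.0765, 0.0512 and 0.776). Car4, a carbonic anhydrase of capillaries, had 36.4, 45.9 and 78.9 against 83.6, 132 and 209 without overlap (-1.45 ± 0.16), and Gpihbp1, which anchors lipoprotein lipase on the vessel wall, 68.8, 123 and 185 against 173, 299.9 and 366 (-1.22 ± 0.17). Kdr, the main VEGF receptor, and Robo4 differed by -1.12 ± 0.16 and -1.29 ± 0.17. Of 13 smooth muscle and pericyte genes 12 were lower (median -0.95), among them Myh11 (-1.69 ± 0.28), Cnn1 (-2.64 ± 0.43), Higd1b (-1.05 ± 0.14) and Abcc9 (-1.11 ± 0.20). Genes of the red cell lineage were lower in 5 of 6 cases, with 8.08, 15.4 and 92.7 against 21.7, 71.3 and 187 for the globin gene Hba-a2 (-1.56 ± 0.41), whose near-identical copy Hba-a1 may share its reads. Alas2, the haem enzyme of red cells, differed by -1.35 ± 0.36. Within the SZ-A libraries alone neither was called (-0.70 and -0.75, adjusted p = 0.376 and 0.317). In the middle libraries only 3 of the 6 red cell slopes had the sign seen between the sides (median slope 0.06). Of 12 mesothelial genes 0 were called (edgeR). Of 12 ciliated epithelium genes 6 could be tested and 1 was higher, and of 12 squamous epithelium genes 5 could be tested and 3 were lower. For 12 epididymal genes 1 could be tested and was not called, and their summed level reached 3.86 CPM on the rich and 20.9 CPM on the poor side.

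**Figure D5:**
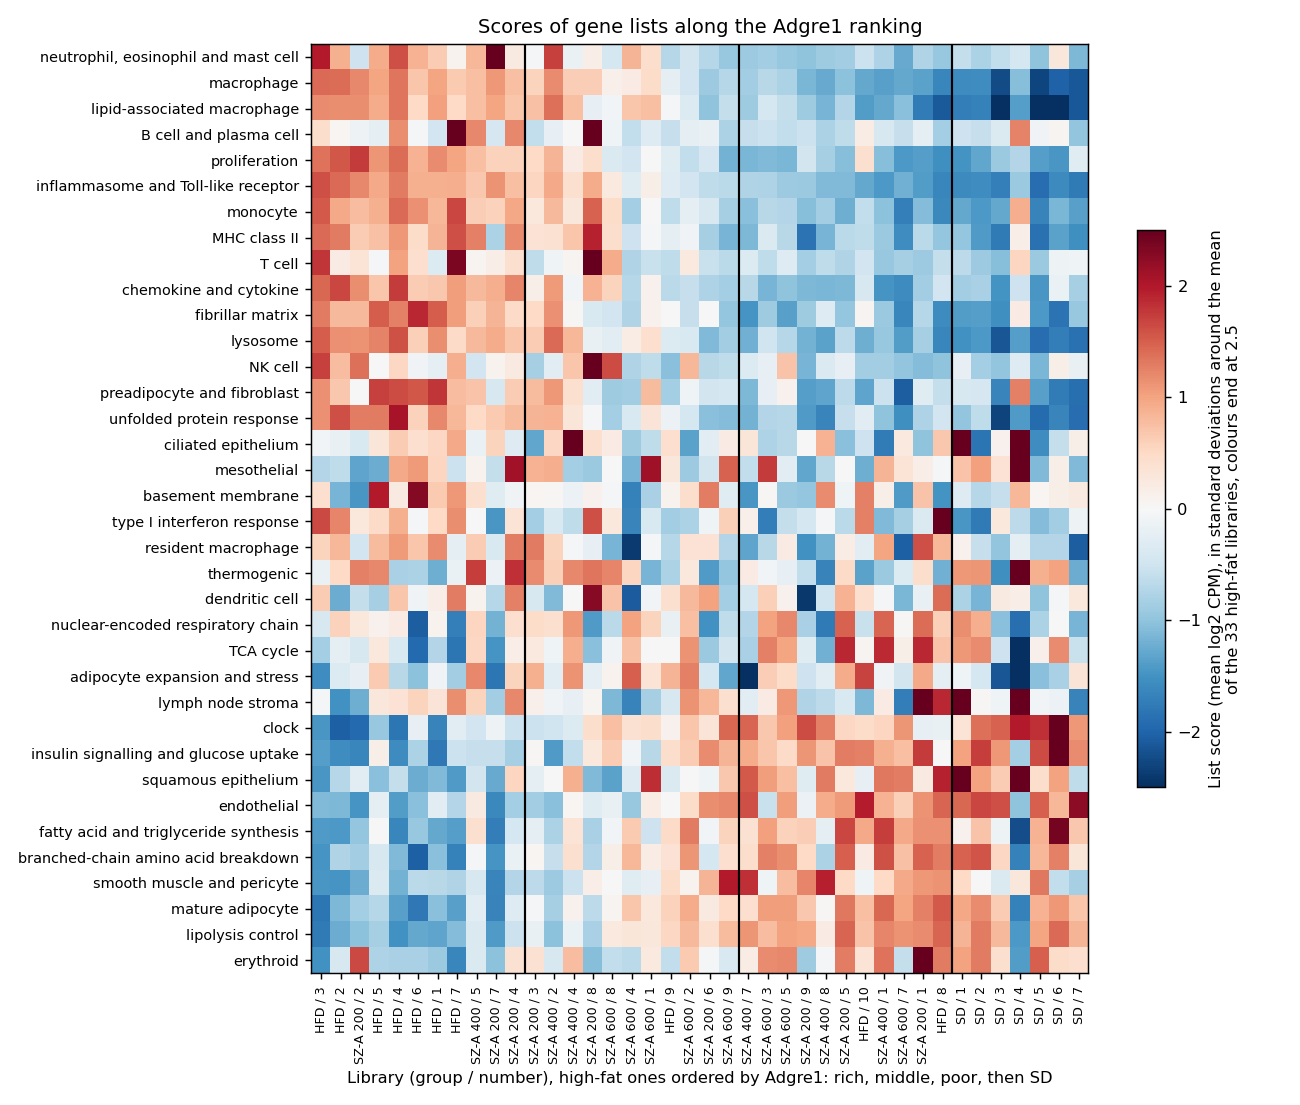
Scores of gene lists (mean log2 normalised CPM of the tested members, in standard deviations around the mean of the 33 high-fat libraries) for each library in order of Adgre1, with the SD libraries at the right. Macrophage and proliferation lists run from high to low along the ranking and adipocyte and lipolysis lists the opposite way, while B cell and T cell scores peak in HFD library 7 and in SZ-A 200 library 8 of the middle.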

How the data were processed

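The authors deposited raw counts per gene and FPKM (fragments per kilobase of gene and 1e6 fragments) for 43 libraries, per the file headers. Strand-specific paired libraries were made from poly(A) RNA, per the labels' protocols. The submitters' processing notes name the mm10 build. Aligner and counting program: not given in the sources used here. Gene coordinates are left out because only 2.86% of 52073 matched IDs shared a start or end with a GRCm38 annotation.

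Totals of the 43 libraries were 32.7 to 44.3 in units of 1e6 counts. Of 56748 genes, 17239 passed edgeR's filterByExpr (minimum count 10, minimum total 15). Adgre1 was left out, libraries were scaled by TMM, and the sides were compared with edgeR's quasi-likelihood test (edgeR 4.0.16, R 4.3.3) with Benjamini-Hochberg adjustment at 0.05. Levels per library are counts per 1e6 after TMM scaling. The middle libraries were fitted against log2 CPM of Adgre1. Alternatives used DESeq2 1.42.0 and limma 3.58.1 on log2 (FPKM + 1) of the deposited values. In simulated data with 17536 genes, 67, 67 and 66 genes were changed by 1.5-fold, 2-fold and 4-fold. The same test of rich against poor recovered 47.8%, 77.6% and 98.5% of them and called 4 other genes. Far fewer genes were changed there than were called in the data, so these values give no error rate for the fit reported.

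The ranking, its members and the 37 gene lists (668 entries, 622 tested, 3 without a gene in the files) were chosen with earlier results of these data known. Named genes were the 15 largest rises and 10 largest falls among called genes with at least 5 normalised CPM on the higher side and 9 of 11 libraries of each side beyond the other side's median, predicted genes left out. To these came up to 4 members per list with the smallest p, a fixed set of 22 genes and the 10 genes most like Adgre1. Some genes that this rule names are not reported here. Genes named as exceptions within a list were chosen after their values were seen.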

Additional observations from a re-analysis of the deposited data

How the results depend on the processing

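Counts of called genes stayed within 1.5 times of 4620 higher and 4875 lower under the other scalings, tools, filters, model terms and rankings tried, except in smaller subsets of libraries. Library set 2 alone gave 2848 higher and 2764 lower, and the SZ-A libraries alone 3037 and 2487. Leaving out 1 library at a time gave 4406 to 4701 higher and 4598 to 4972 lower. Calls were 48.7% higher in the fit reported, 42.9% with upper-quartile factors, which moved the median of all genes to -0.095, and 56.3% with library totals alone. That median was -0.108 without a filter and -0.092 when all 36 high-fat libraries were ranked. Fisher's exact tests of labels over the sides are descriptions, since the sides are the Adgre1 ranking itself. Their two-sided p was 0.0873 for the 4 groups (adjusted p = 0.131) and 0.387 for the sets. For HFD against any SZ-A it was 0.0805 (adjusted p = 0.131), 0.0406 with 8 against 8 libraries and 0.252 with 16 against 16. With a set term, added after seeing the data, 669 slopes in the middle libraries were called lower in place of 313, and the shares with the same sign were 96.7% and 95.9%. Without 3 libraries rich in mitochondrial or small RNA, also added later, 4318 genes were higher and 4394 lower. Ranking by normalised CPM, FPKM, Cd68 or Csf1r kept 9 to 10 of the 11 rich and 10 to 11 of the 11 poor libraries. Equal library numbers were not taken as pairs, since the labels give them no meaning. Same-numbered libraries were still more alike in the median than others, for a reason that was not tested. Deviations of same-numbered libraries of different groups correlated at a median of 0.309 (29 of 43 pairs over 0.1), against -0.0547 for other pairs (146 of 361), and 8 of 33 libraries correlated best with their own number. With a replicate block on the number, 4323 genes were higher and 4286 lower, of which 3858 and 3738 were shared with the fit reported. Under that block Ms4a1, Ighv1-26, Xaf1 and Dlk1 were not called (adjusted p = 0.0519, 0.0871, 0.259 and 0.131) and Dbp was (0.0305). Of 179 named genes in 8042 comparisons, 7896 kept direction and side of the threshold, 24 gained a call, 101 lost one and 21 changed sign. In set 2 alone, with 3 rich and 6 poor libraries, Abcc9, Arntl, Elovl6, Hadha, Irs1, Nkg7, Ppara, Thbs1, Thbs2 and Xcr1 were not called (adjusted p = 0.0672 to 0.186), nor were Acly, Acp5, Dlst, Eomes, Hadha, Ndufv1, Nkg7 and Xcr1 in the SZ-A libraries alone (0.0527 to 0.18). The sign changes were Lpl (0.058 with totals alone, 0.036 with a dose term, 0.045 in SZ-A libraries, 0.086 ranked by normalised CPM, 0.208 ranked in 36 libraries, and -0.067 to 0.033 without single libraries, against -0.019), Fasn (-0.003 with a dose term, -0.167 with dose and set), Dbp (0.585 and 0.475 with the same terms), Cd36 (-0.006 with a set term, -0.100 with the replicate block, -0.191 in set 1, -0.012 without 3 libraries) and Gk (-1.275 ranked in 36 libraries). Apart from Dbp and Gk these genes were not called in any of the fits named; the cause was not tested.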

Other observations

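HFD library 8, last in the Adgre1 ranking, held the highest summed level of the type I interferon response list among the 33 libraries, at 784 CPM, where the rich side ran from 336 to 574 CPM. SD library 4 held 777 CPM of the ciliated epithelium list and 621 CPM of the mesothelial list, and its mature adipocyte list summed to 22969 CPM, the lowest of the 7 SD libraries, whose median was 73296 CPM.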
